A study of Rattus norvegicus with 4 samples.

Results

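The genes described here encode hepatocyte growth factor (HGF), its receptor MET and their close partners in the rat skeletal myoblast line L6. They are the ligands Hgf and Mst1, the receptors Met and Mst1r, the protease inhibitors Spint1 and Spint2, and the adaptors and phosphatase Gab1, Grb2, Shc1 and Ptpn11. They were chosen by name, and a probe set was taken when the array annotation gave it one of these names as its single gene symbol. Of the 10 genes, 9 had such a probe set, 12 probe sets in all, out of 14217 genes and 31042 probe sets compared, while Mst1r was not analysed here. Grb2 was represented by 3 probe sets, Ptpn11 by 2 and each of the other 7 genes by 1.

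Total RNA of 4 cultures was hybridised to Affymetrix arrays of the rat genome, 1 per culture: an L6-HGF sheet, an L6-HGF monolayer, an L6-WT sheet and an L6-WT monolayer. All 4 cultures derive from the same established line, for which the labels give the rat strain Wistar. L6-HGF myoblasts constitutively express human HGF (hHGF), carried by a retrovirus, and had gone through puromycin selection. For L6-WT, the wild-type cells, neither a vector nor a selection is described, so that hHGF, vector and selection cannot be told apart. A sheet is a densely plated layer of myoblasts grown on a thermoreactive dish, from which it comes off intact at room temperature. Values are log2 signals (RMA) in which each probe set was centred on the median of its 4 arrays, so that 0 is that median and a difference of 1 is 2-fold. By this centring the middle pair of arrays lies at equal distances above and below 0, and signal levels are lost. The levels of different genes therefore could not be compared, and neither could the presence of myoblast markers be checked.

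HGF is secreted as an inactive single chain and is cut by serine proteases into the active form that binds MET, a receptor tyrosine kinase. Activated MET recruits adaptor proteins to phosphorylated tyrosines in its tail, and these pass the signal to the RAS-MAPK and PI3K pathways. In skeletal muscle, HGF is known for activating quiescent satellite cells and for guiding the migration of MET-bearing muscle precursors. Macrophage-stimulating protein, encoded by Mst1, is a relative of HGF that acts on the receptor RON, encoded by Mst1r.

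The promoters of Hgf, Met and Ptpn11 are shown because, among members in the promoter table, these 3 genes had the largest ranges over the 4 arrays. The sequences are the 250 bases before the annotated start of each gene, from RefSeq on the rat build GRCr8, 5′ to 3′ on the strand of the gene. Of the 10 member names, 9 were found in the promoter table. Capitals mark a CCAAT box (CCAAT or ATTGG), a GC box (GGGCGG or CCGCCC), a HIF core (ACGTG or CACGT), an AP-1 site (TGACTCA or TGAGTCA) or a TATA box (TATAAA or TTTATA), each searched on both strands.
Hgf, chr4:19700468-19700717, minus strand: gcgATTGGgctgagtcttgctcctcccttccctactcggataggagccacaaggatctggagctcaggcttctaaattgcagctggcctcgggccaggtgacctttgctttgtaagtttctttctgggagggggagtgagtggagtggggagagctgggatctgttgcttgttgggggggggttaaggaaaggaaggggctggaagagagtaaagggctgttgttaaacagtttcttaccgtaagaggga
Met, chr4:46784496-46784745, plus strand: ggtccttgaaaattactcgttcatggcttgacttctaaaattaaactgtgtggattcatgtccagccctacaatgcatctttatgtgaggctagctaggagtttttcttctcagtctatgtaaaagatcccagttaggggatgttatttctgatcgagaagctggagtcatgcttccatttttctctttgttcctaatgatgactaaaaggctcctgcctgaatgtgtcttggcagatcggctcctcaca
Ptpn11, chr12:41025829-41026078, plus strand: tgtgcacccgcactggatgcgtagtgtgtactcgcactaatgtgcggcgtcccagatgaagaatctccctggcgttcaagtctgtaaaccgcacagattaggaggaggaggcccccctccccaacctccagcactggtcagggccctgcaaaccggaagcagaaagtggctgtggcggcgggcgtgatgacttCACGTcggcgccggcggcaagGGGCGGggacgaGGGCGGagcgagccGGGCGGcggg

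The windows differed in these letters. Ptpn11 had 3 GC boxes and 1 HIF core, Hgf had 1 CCAAT box, and the Met window held none of the letters searched. Of 27457 rat promoters of this length, 32.4% held a GC box, 34.3% a CCAAT box and 16.9% a HIF core, while 3.98% held an AP-1 site and 13.1% a TATA box. The G and C content was 65.6% for Ptpn11, 54.0% for Hgf and 42.0% for Met, against a median of 52.0% over all of these promoters. The Met window lies inside the annotated gene, which spans chr4:46756823-46864041, so that at least 1 other transcript begins upstream of it. These matches are descriptions of the letters and were not set against binding data.

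The probe set for rat Hgf was higher in both L6-HGF cultures than in both L6-WT cultures. Its values were 0.21 in the L6-HGF sheet and 0.19 in the L6-HGF monolayer, against -0.29 in the L6-WT sheet and -0.19 in the L6-WT monolayer. The groups did not overlap, and the pairs of arrays within each cell line lay close together. On the log2 scale L6-HGF was above L6-WT by 0.50 in sheets (1.41-fold) and 0.38 in monolayers (1.30-fold), within 2-fold in both. A larger difference, in either direction, was found for 8.64% of genes in sheets and 8.82% in monolayers. Over both formats the difference was 0.44 ± 0.11 (SE), with an unadjusted p of 0.0153 and an adjusted p of 0.505 in limma. That model held terms for cell line and culture format and left 1 residual degree of freedom, since each condition had 1 array. Its residual holds array noise together with any difference of the effect between formats. Limma moderated the variance of each probe set towards that of all 31042 probe sets compared (eBayes). It is this moderated variance that enters the SEs and p-values. The SEs and p-values from limma given here therefore do not measure a spread between replicate cultures. The probe set is annotated to a rat transcript, and whether it also binds the human transgene could not be settled without its probe sequences, so that endogenous Hgf and hHGF cannot be told apart. Between formats the values were nearly equal, with sheet over monolayer at 0.02 in L6-HGF and -0.09 in L6-WT.

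As a gene mean, Met had the largest range of the members, and it was lower in both sheets than in both monolayers. Its values were -0.73 in the L6-HGF sheet and 0.52 in the L6-HGF monolayer, against -0.31 in the L6-WT sheet and 0.31 in the L6-WT monolayer. The 2 L6-HGF arrays were the lowest and the highest, with the L6-WT arrays between them. Met was 2.38-fold lower in the sheet than in the monolayer of L6-HGF (log2 difference -1.25) and 1.53-fold lower in L6-WT (-0.61). In L6-HGF, 2.57% of all genes were more than 2-fold lower in the sheet, and Met was the member among them. A larger difference was found for 2.30% of genes in L6-HGF and 6.30% in L6-WT. Over both cell lines the sheet effect on Met was -0.93 ± 0.19 (SE), with an unadjusted p of 0.00933 and an adjusted p of 0.172 in limma. The comparison of cell lines ran in opposite directions, with L6-HGF over L6-WT at -0.42 in sheets and 0.22 in monolayers, and -0.10 ± 0.19 (SE) over both formats (adjusted p = 0.878 in limma).

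**Figure D1:**
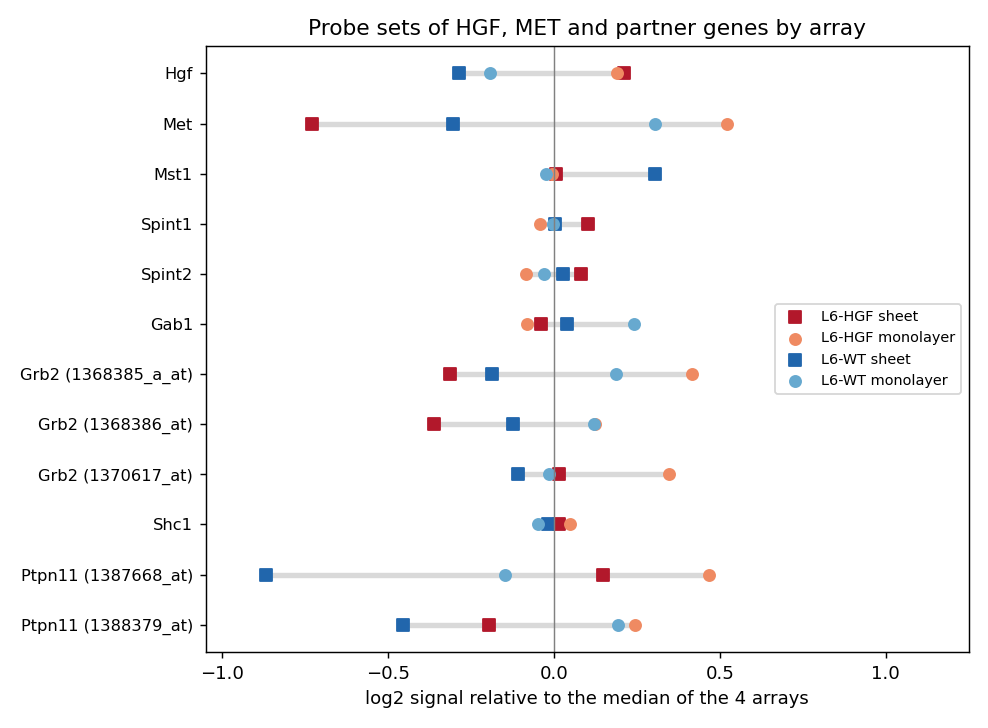
The log2 signal of each of 12 probe sets relative to the median of its 4 arrays (horizontal axis), with squares for sheets, circles for monolayers, red tones for L6-HGF, blue tones for L6-WT and a grey bar from the lowest to the highest array. Each point is 1 array. Met lies at -0.73 in the L6-HGF sheet and 0.52 in the L6-HGF monolayer, probe set 1387668_at of Ptpn11 is lowest in the L6-WT sheet, at -0.87, and the red symbols of Hgf lie right of the blue ones.

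Mst1, Spint1 and Spint2 stayed within 1.5-fold in every comparison. Mst1 was at 0.0062 in the L6-HGF sheet and -0.0062 in the L6-HGF monolayer, against 0.30 in the L6-WT sheet and -0.02 in the L6-WT monolayer. Thus the L6-WT sheet stood above the other 3 arrays, with L6-HGF over L6-WT at -0.30 in sheets and 0.02 in monolayers. Spint1, which encodes the membrane inhibitor HAI-1 of HGF-activating proteases, was at 0.10 in the L6-HGF sheet and -0.04 in the L6-HGF monolayer, against 0.0030 in the L6-WT sheet and -0.0030 in the L6-WT monolayer. Spint2, which encodes the related inhibitor HAI-2, was at 0.08 in the L6-HGF sheet and -0.08 in the L6-HGF monolayer, against 0.03 in the L6-WT sheet and -0.03 in the L6-WT monolayer. For both inhibitors the L6-HGF sheet was the highest array and the L6-HGF monolayer the lowest. All differences of the inhibitors lay between -0.06 and 0.17. The 45 bacterial control probe sets, which carry technical spread only and none between cultures, had SDs of 0.12 to 0.22 over the 4 comparisons. Their medians were 0.17 in L6-HGF and 0.23 in L6-WT for sheet over monolayer, and 0.05 in sheets and 0.10 in monolayers for L6-HGF over L6-WT.

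Ptpn11, which encodes the phosphatase SHP2 that acts with GAB1 to sustain RAS signalling, was the member with the largest difference between L6-HGF and L6-WT in sheets. As the mean of its 2 probe sets it was at -0.02 in the L6-HGF sheet and 0.36 in the L6-HGF monolayer, against -0.66 in the L6-WT sheet and 0.02 in the L6-WT monolayer. The L6-WT sheet was the lowest array and the L6-HGF monolayer the highest. L6-HGF was 1.56-fold higher in sheets (0.64) and 1.26-fold higher in monolayers (0.33), and 4.56% and 12.4% of genes had larger differences. The probe sets disagreed in size. The first, 1387668_at, gave 1.02 in sheets (2.02-fold) and 0.62 in monolayers, while 1388379_at gave 0.26 and 0.05. Among all probe sets, 1.55% passed 2-fold in sheets. Over both formats, 1387668_at had a difference of 0.82 ± 0.14 (SE), an unadjusted p of 0.0054 and an adjusted p of 0.505 in limma, and 1388379_at had 0.16 ± 0.12, with adjusted p = 0.671. Both gave lower values in sheets than in monolayers, at -0.32 and -0.44 in L6-HGF and at -0.72 and -0.65 in L6-WT.

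The adaptor genes lay within 2-fold throughout. Grb2, which links the activated receptor to the RAS exchange factor SOS, was at -0.22 in the L6-HGF sheet and 0.30 in the L6-HGF monolayer, against -0.14 in the L6-WT sheet and 0.10 in the L6-WT monolayer. It was therefore lower in both sheets, by -0.52 in L6-HGF and -0.24 in L6-WT on the log2 scale, and all 3 of its probe sets had this direction in both cell lines. Their sheet effects over both cell lines were between -0.55 and -0.21, with adjusted p-values from 0.186 to 0.382 in limma. Gab1, the large docking protein that binds MET directly, was at -0.04 in the L6-HGF sheet and -0.08 in the L6-HGF monolayer, against 0.04 in the L6-WT sheet and 0.24 in the L6-WT monolayer. Both L6-HGF arrays were below both L6-WT arrays, with a difference of -0.08 in sheets and -0.32 in monolayers (limma over both formats -0.20 ± 0.12 (SE), adjusted p = 0.611). Shc1, an adaptor that brings GRB2 to receptors, had the smallest range, with 0.02 in the L6-HGF sheet and 0.05 in the L6-HGF monolayer, against -0.02 in the L6-WT sheet and -0.05 in the L6-WT monolayer.

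**Figure D2:**
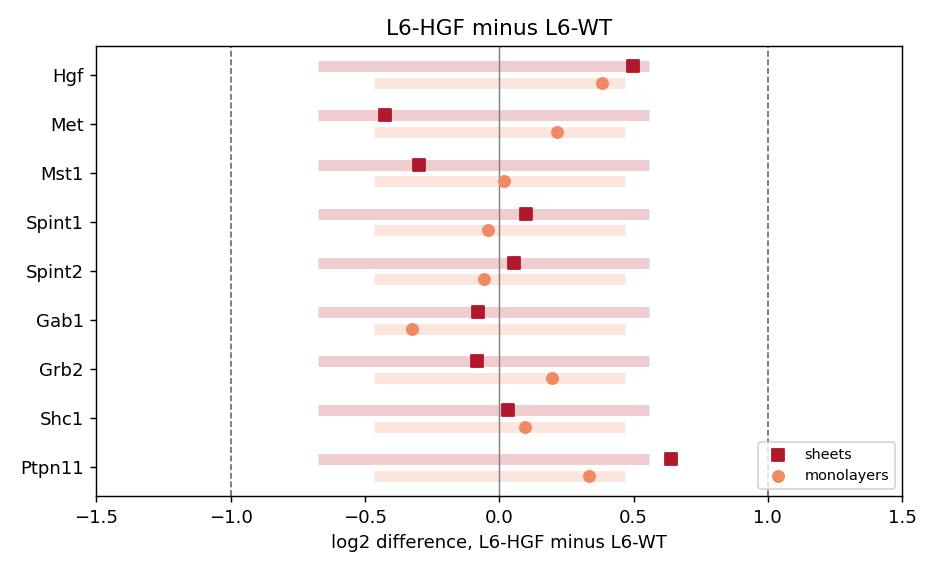
L6-HGF minus L6-WT on the log2 scale (horizontal axis) for the 9 measured genes in sheets (squares) and in monolayers (circles), from 1 array per condition. Shaded bands hold the middle 95% of all 14217 genes in the same comparison, and dashed lines mark 2-fold. Ptpn11 in sheets, at 0.64, lies outside its band, and no gene lies past a dashed line.

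Between L6-HGF and L6-WT, then, 0 of 9 genes passed 2-fold in either format, where 1.44% of all genes did so in sheets and 0.535% in monolayers. The median log2 difference over the 9 genes was 0.03 in sheets and 0.10 in monolayers, beside medians of -0.02 and 0.0016 over all genes. At a threshold of 1.5-fold, Ptpn11 was called in sheets, beside 5.78% of all genes, and no member in monolayers, beside 2.51%. In sheets 5 of the 9 genes were above 0 and 4 below, and in monolayers 6 were above and 3 below. Of all 14217 genes, 6573 were above 0 in sheets and 7160 in monolayers. Both L6-HGF arrays were above both L6-WT arrays for Hgf and Shc1, 2 of 9 genes, as for 12.9% of all genes, and below them for Gab1 alone, as for 15.2%. In sheets, Shc1 was at only 0.02 in L6-HGF and -0.02 in L6-WT, and Gab1 at -0.04 and 0.04. The bacterial controls had an SD of 0.22 in that comparison. No probe set of any gene passed an adjusted p of 0.05 for cell line in limma, and an unadjusted p under 0.05 was found for 2 of 12 member probe sets (Hgf and Ptpn11 1387668_at) and for 9.59% of all probe sets.

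Between sheets and monolayers, 1 of 9 genes passed 2-fold in L6-HGF, namely Met, and 0 of 9 in L6-WT, where 3.75% and 1.21% of all genes did so. At 1.5-fold, Met was still the member called in L6-HGF, beside 11.3% of all genes, and Met and Ptpn11 were called in L6-WT, beside 7.13%. The medians of the 9 genes were 0.01 in L6-HGF and -0.09 in L6-WT, beside 0.03 and 0.03 over all genes. Both sheet arrays were below both monolayer arrays for Met, Grb2 and Ptpn11, 3 of 9 genes against 24.3% of all genes, and above them for Mst1, Spint1 and Spint2, again 3 of 9, against 30.1%. Of these, the sheet effects of Mst1 in L6-HGF (0.01) and Spint1 in L6-WT (0.0060) were small. Both changed sign with quantile normalization and when each array was centred on its median. The sheet effects of Spint1 in L6-HGF (0.15) and of Spint2 (0.17 in L6-HGF, 0.06 in L6-WT) were no larger than the medians of the bacterial controls. Those medians were 0.17 in L6-HGF and 0.23 in L6-WT, whereas Mst1 in L6-WT had 0.33. In limma, no probe set of any gene passed an adjusted p of 0.05 for format. An unadjusted p under 0.05 was found for 5 of 12 member probe sets, those of Met, both of Ptpn11 and 2 of Grb2, all with lower values in sheets, and for 20.4% of all probe sets. The comparisons by cell line and by format use the same 4 arrays and are not independent of each other.

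**Figure D3:**
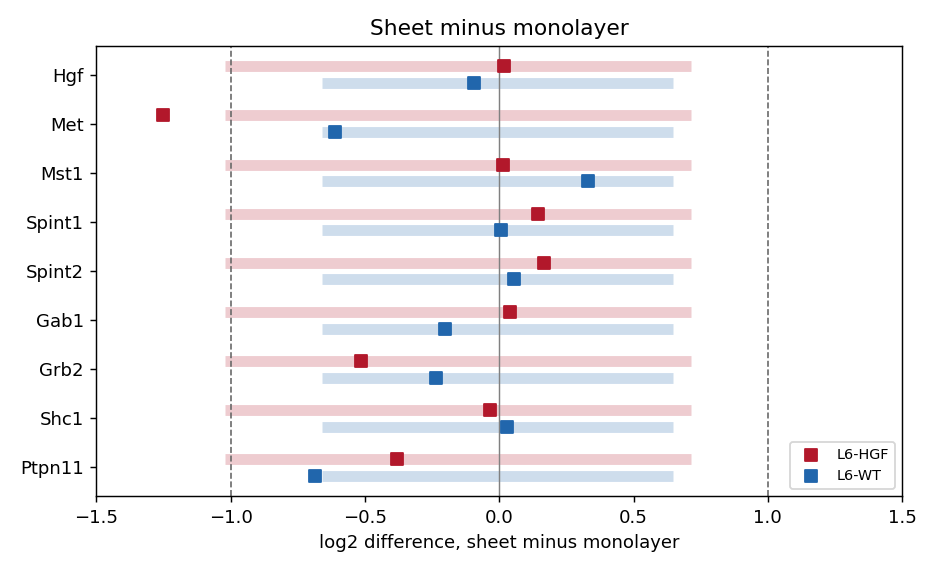
The log2 difference between sheet and monolayer (horizontal axis) for the 9 measured genes in L6-HGF (red) and L6-WT (blue), from 1 array per condition. Bands hold the middle 95% of all 14217 genes and dashed lines mark 2-fold. Met in L6-HGF, at -1.25, lies past the dashed line, and Met, Grb2 and Ptpn11 lie left of 0 in both cell lines.

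Other values moved with culture format as well. The difference between the 5′ and the 3′ control probe set of beta-actin, a sign of RNA integrity, was -0.08 in the L6-HGF sheet and 0.12 in the L6-HGF monolayer, against -0.11 in the L6-WT sheet and 0.06 in the L6-WT monolayer. For hexokinase it was -0.19 in the L6-HGF sheet and 0.10 in the L6-HGF monolayer, against -0.15 in the L6-WT sheet and 0.17 in the L6-WT monolayer. Both were thus lower in sheets, whereas for GAPDH the 4 arrays lay between -0.08 and 0.02. Of 8 fibroblast markers, 4 (Dcn, Lum, Dpt and Postn) were more than 2-fold higher in sheets in each cell line, beside 1.17% of all genes in L6-HGF and 0.717% in L6-WT. The other 4 markers lay below 0 in L6-HGF, the lowest at -0.86, and 3 of them did so in L6-WT, the lowest at -0.43. The median of the 8 was 0.38 in L6-HGF and 1.04 in L6-WT. As this list was chosen with earlier results of these data known, its count beside the share of all genes is a description. In sheets, L6-HGF was below L6-WT for all 8, as for 7630 of all 14217 genes. The median of the 8 in that comparison was -0.65, beside -0.02 over all genes. The 8 measured myoblast markers went both ways between sheet and monolayer, with 3 above 0 and 5 below in L6-HGF (median -0.14) and 2 above and 6 below in L6-WT (median -0.25). Over all genes, 6531 of 14217 were below 0 in L6-HGF and 6488 in L6-WT. The integrin gene Itga7 was the marker past 2-fold, lower in sheets in each cell line, but 1 of its 3 probe sets, 1371214_at, had -0.22 in L6-HGF and 0.20 in L6-WT. More than 2-fold lower in sheets were 2.57% of all genes in L6-HGF and 70 of 14217 in L6-WT. None of 5 endothelial and 5 smooth muscle markers passed 2-fold in any comparison. In sheets, all 5 smooth muscle markers nonetheless had higher values in L6-HGF than in L6-WT, as did 6573 of all 14217 genes. The median of the 5 was 0.56 and the highest value 0.96, beside a median of -0.02 over all genes. The part of RNA integrity and of these markers in the lower Met, Grb2 and Ptpn11 values of sheets was not tested. In such cultures a change in the share of cells that express a gene and a change in its RNA per cell cannot be told apart.

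Around the core genes, lists of the wider pathway were examined for genes past 2-fold. The 9 measured genes listed with the proteases that activate HGF or its relative include Plaur, which encodes the urokinase receptor. Of these 9 genes, Plau was the one past 2-fold. It encodes urokinase, a protease known to cut HGF into its active form. Plau was at -1.38 in the L6-HGF sheet and 0.36 in the L6-HGF monolayer, against -0.36 in the L6-WT sheet and 0.72 in the L6-WT monolayer. It was lower in L6-HGF in both formats, by 2.03-fold in sheets and 1.28-fold in monolayers, and lower in sheets, by 3.36-fold in L6-HGF and 2.12-fold in L6-WT. Its 2 probe sets agreed, with -0.94 and -1.10 between L6-HGF and L6-WT in sheets. The genes more than 2-fold lower in L6-HGF sheets than in L6-WT sheets were 0.95% of all genes. Those more than 2-fold lower in the sheet than in the monolayer were 2.57% in L6-HGF and 70 of 14217 in L6-WT.

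Of 17 measured genes listed with MET at the membrane, Nrp1 and Itga6 passed 2-fold. That list also holds enzymes, namely Glce and Ext1 of heparan sulfate synthesis and the proteases Adam10 and Adam17. The co-receptor gene Nrp1 was at -0.77 in the L6-HGF sheet and -0.27 in the L6-HGF monolayer, against 0.27 in the L6-WT sheet and 0.95 in the L6-WT monolayer, so that both L6-HGF arrays lay below both L6-WT arrays, as for 15.2% of all genes. It was more than 2-fold lower in L6-HGF in both formats, beside 0.95% of all genes in sheets and 0.309% in monolayers. In sheets its probe sets gave -1.11 (1373577_at) and -0.98 (1370570_at), the latter just within 2-fold. Itga6, an integrin chain that pairs with the MET partner integrin β4, followed Met in its order of arrays, with -0.57 in the L6-HGF sheet and 0.54 in the L6-HGF monolayer, against -0.32 in the L6-WT sheet and 0.38 in the L6-WT monolayer. It was 2.16-fold lower in the sheet than in the monolayer of L6-HGF, beside 2.57% of all genes past 2-fold in that direction, and 1.62-fold lower in L6-WT. Of its 4 probe sets, 3 lay between -1.64 and -1.25 in L6-HGF, and 1371185_at had 0.04.

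Among 17 genes that end or dampen MET signals, Spry1, Dusp6 and Sh3kbp1 passed 2-fold in at least 1 comparison. Dusp6, a phosphatase that inactivates ERK and is itself induced by it, was at -1.20 in the L6-HGF sheet and 0.24 in the L6-HGF monolayer, against -0.13 in the L6-WT sheet and 0.17 in the L6-WT monolayer. The L6-HGF sheet thus stood apart from the other 3 arrays, and in all 3 probe sets its difference from the L6-WT sheet was between -1.29 and -0.86. Past 2-fold in these directions were 0.95% of all genes against the L6-WT sheet and 2.57% against the L6-HGF monolayer. Spry1, an inhibitor of receptor tyrosine kinase signals, was at -0.40 in the L6-HGF sheet and -0.64 in the L6-HGF monolayer, against 0.40 in the L6-WT sheet and 0.83 in the L6-WT monolayer. Its call was in monolayers, where 0.309% of all genes passed 2-fold in the same direction, lower in L6-HGF. For Sh3kbp1, which encodes CIN85, an adaptor of CBL in the endocytosis of MET, the L6-WT monolayer was the array that stood apart, at -0.89, with 0.04 in the L6-HGF sheet, -0.04 in the L6-HGF monolayer and 0.14 in the L6-WT sheet. It was 2.04-fold higher in the sheet than in the monolayer of L6-WT, where 0.717% of all genes were more than 2-fold higher. Its probe sets gave log2 differences of 1.19 (1387957_a_at) and 0.87 (1370419_a_at), the latter within 2-fold.

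Of 32 genes of the signal relay below MET, 25 were measured, and all of these lay within 2-fold in every comparison. Of all genes, 0.535% to 3.75% passed 2-fold in the 4 comparisons, so most genes lay within it. In L6-WT 23 of the 25 relay genes were lower in the sheet than in the monolayer and 2 higher, with a median of -0.25. In L6-HGF 18 were lower and 7 higher, with a median of -0.16. Of all 14217 genes, 6488 were lower in the sheet in L6-WT and 6531 in L6-HGF, with a median of 0.03 in each cell line. Between L6-HGF and L6-WT the medians of the relay genes were 0.08 in sheets and -0.04 in monolayers. The 8 measured transcription factors that act on Met or Hgf also stayed within 2-fold, with medians between -0.10 and 0.10.

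**Figure D4:**
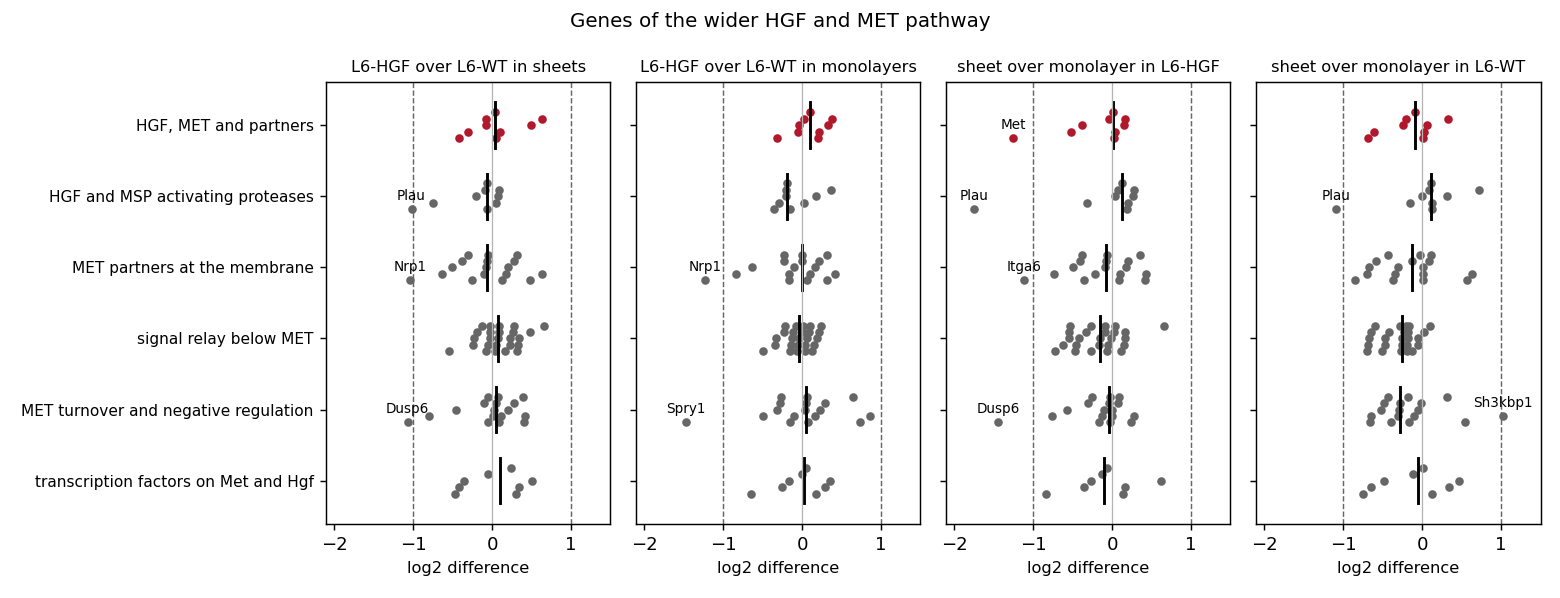
The log2 difference (horizontal axis) in each of the 4 comparisons for the 9 core genes (red) and the genes of 5 pathway lists (grey), with 1 point per gene, spread vertically for legibility. Bars stand at the medians, and dashed lines mark 2-fold. Genes past 2-fold are named. Plau lies past the line in 3 comparisons, and the relay genes lie between the lines in all 4.

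The genes closest to Met over the 4 arrays, by Euclidean distance of the log2 values, were Smtn (0.07), Ppp1r13b (0.08), Tubb4b (0.09), Myh10 (0.09) and Fkbp5 (0.10). Smtn was at -0.69 in the L6-HGF sheet and 0.47 in the L6-HGF monolayer, against -0.33 in the L6-WT sheet and 0.33 in the L6-WT monolayer. The genes closest to Hgf were Nars1 (0.04), Itpr3 (0.06), Commd8 (0.06), Gars1 (0.07) and Slc20a1 (0.08). With 4 arrays and 14217 genes such likeness is a description.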

How the data were processed

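RNA of 4 L6 cultures was measured on the Affymetrix GeneChip Rat Genome array, with 1 array per culture. The authors normalized the arrays with RMA (version not given in the sources used here) and to the median, and deposited log2 values, with each probe set centred on its own median to within 5e-07. Of 31099 probe sets, 57 controls were left out. Of the remaining 31042, the annotation gave 20826 a single gene symbol and 436 several, and did not list 9780. A gene is the mean of its probe sets with 1 symbol. With 1 array per condition, log2 differences between arrays were read against a 2-fold threshold, and precision is limited by the number of arrays. Across all probe sets, limma 3.58.1 (R 4.3.3) was fitted with terms for cell line and format, eBayes moderation of variances and Benjamini-Hochberg adjustment. Python 3.11.15, pandas 2.3.3, numpy 2.4.6 and matplotlib 3.10.9 were used. Members and lists were chosen with earlier results of these data known. Named by rule outside the members were list genes past 2-fold and the 5 genes nearest to Hgf and to Met.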

Additional observations from a re-analysis of the deposited data

Results flagged for a closer look

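For several members, the single difference in one format or cell line had the opposite sign to that in the other, and with 1 array per condition these contrasts were not tested. The values below are L6-HGF minus L6-WT in sheets less the same in monolayers (log2), which equals the sheet effect in L6-HGF minus that in L6-WT. For Met it was -0.64, from -0.42 in sheets and 0.22 in monolayers, and 5.70% of genes had a larger value. With quantile normalization the Met differences were -0.24 in sheets and 0.18 in monolayers. Over all compared probe sets the L6-HGF sheet array had the widest spread (SD 0.28). The SD was 0.21 in the L6-HGF monolayer, 0.22 in the L6-WT sheet and 0.20 in the L6-WT monolayer. For Mst1 the contrast was -0.32, and for Grb2 -0.28, each negative in sheets and positive in monolayers. For Spint1 it was 0.14 and for Spint2 0.11, each positive in sheets and negative in monolayers. The sheet effect was positive in L6-HGF and negative in L6-WT for Gab1 (0.24) and Hgf (0.11), and negative in L6-HGF and positive in L6-WT for Shc1 (-0.064). The sheet effect of Hgf in L6-HGF was 0.02 and became -0.0038 when each array was centred on its median.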

How the results depend on the processing

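Quantile normalization of the centred values, centring of each array on its median, the median of probe sets, leaving out probe sets ending in _x_at, _s_at or _a_at (which removes Gab1) and adding probe sets with several symbols each left the counts of members past 2-fold unchanged. Met in L6-HGF (sheet over monolayer) was -1.03 with quantile normalization. For L6-HGF over L6-WT, quantile normalization moved the share of all genes past 2-fold from 1.44% to 0.661% in sheets. In monolayers the share went from 0.535% to 0.739%. The genes of the wider lists were not run under the alternatives. Among them, Plau (-1.02), Nrp1 (-1.04) and Dusp6 (-1.07) lay just past 2-fold between L6-HGF and L6-WT in sheets. At a threshold of 1.5-fold, 1 member was called between L6-HGF and L6-WT in sheets (Ptpn11; 5.78% of all genes), and 2 members between sheet and monolayer in L6-WT (Met and Ptpn11; 7.13% of all genes). Of 176 single differences under these alternatives, 171 kept their sign and 5 did not, all of 0.02 or less in size. Many of the 176 could not change. Adding probe sets with several symbols left every member value as it was. The median of probe sets and the leaving out of probe sets altered the values of Grb2 alone. All 5 changes of sign came with quantile normalization or centring of each array, so the count is a weak check. In limma, 0 of 12 member probe sets passed an adjusted p of 0.05 under each of the alternatives run, including the tested term alone. For format, 55 of all probe sets passed with quantile normalization, 4 with median centring and 0 as deposited or with format alone. No paired analysis was possible because each condition has 1 array and the labels give no replicate numbers, but the terms for format and cell line in limma set arrays against each other within a format or a cell line. Without replicates, no array could be left out of a comparison, and without signal levels a dim probe set could not be told from a bright one.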
